A study of Mus musculus with 4 samples.

Results

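The regions described here are places of open chromatin on the mouse autosomes beside an end of a pseudogene. Their midpoints were away from the outer ends of protein-coding and lncRNA genes, though some lay inside such genes. The regions were taken from peak lists of ATAC-seq, an assay that uses a transposase to insert sequencing adapters into accessible DNA. Peaks of 4 libraries were merged where they overlapped by at least 1 bp. A merged region was kept when it was on chromosomes 1 to 19, its midpoint was within 1 kb of an end of a gene annotated as a pseudogene, and its midpoint was more than 1 kb from every end of a protein-coding or lncRNA gene. This rule gave 1676 of 155908 regions in all, of which 127091 were autosomal. The rule used position only, and no measured level.

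All 4 libraries came from pachytene spermatocytes of mouse testis, cells in the long stage of meiosis when homologous chromosomes are paired. The 2 treated libraries, BMH-21 1 and 2, received BMH-21, which inhibits RNA polymerase I, at 2.5 µM for 12 h. The 2 control libraries, Mock 1 and 2, were given the solvent DMSO. No genetic change was described in any group. The submitters call the libraries of a group biological replicates. The sources used here do not state strain, age, number of animals, the method of cell isolation or whether replicates came from separate animals, so the spread between replicates may be technical.

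Pseudogenes are copies of genes that no longer make the parent's product. Processed pseudogenes arose from an mRNA that was reverse transcribed and inserted elsewhere, usually without the parent's promoter, while unprocessed ones arose by duplication of the gene and can carry its flanking sequence. Ribosomal protein genes gave rise to many processed copies, and olfactory and vomeronasal receptor families hold many decayed duplicates. Pachytene spermatocytes are known for transcribing a wide part of the genome, pseudogenes and long noncoding RNAs included.

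The pseudogenes themselves had no entry in the RefSeq table of promoter windows, which runs from 250 bases before to 50 bases after a transcript start (GRCm38.p6). A window of a protein-coding gene, from a start inside the gene, overlapped 6 of the 1676 regions, in whole or in part (0.358%, exact 95% interval 0.131 to 0.778). The same windows overlapped 1.72% of autosomal regions away from every gene end, 33.9% of those at lncRNA ends only and 52.8% of those at protein-coding ends. Of these 6 regions, 3 were present in all 4 libraries, at Gm31532 in Sgo1, at Gm29257 in Mdm4 and at Gm27219 in Fez1. One region, at Gm12341 in Abr, was present in both Mock and in no BMH-21 library. The remaining pair comprised Gm18828 in Zap70, with a peak only in Mock 2, and Rps13-ps4 by Taf1c, with a peak in Mock 1 and BMH-21 2. Over all autosomes, 11721 regions with such a window were in both Mock libraries. Of those, 9805 were in all 4 libraries and 1482 (12.6%) in no BMH-21 library. Retention was thus common wherever such a window was present, and 4 pseudogene-end regions in both Mock libraries give no share.

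All windows of the 3 retained regions and of the mock-only region are shown because they overlap these regions. The Abr start itself lay outside its region, which shared only an upstream part of the window. Fez1 has 2 windows under a single region. Capitals mark 4 motifs on either strand: the TATA box as TATAAA, the CCAAT box as CCAAT, the GC box as GGGCGG and the E-box as CACGTG. No matches overlapped. Each sequence is the RefSeq window read along the gene, with chr17:53689266-53689565 (minus strand) for Sgo1, chr1:133025367-133025666 (minus) for Mdm4, chr9:36832490-36832789 (plus) and chr9:36833324-36833623 (plus) for the upstream and downstream windows of Fez1 and chr11:76509370-76509669 (minus) for Abr.
Sgo1: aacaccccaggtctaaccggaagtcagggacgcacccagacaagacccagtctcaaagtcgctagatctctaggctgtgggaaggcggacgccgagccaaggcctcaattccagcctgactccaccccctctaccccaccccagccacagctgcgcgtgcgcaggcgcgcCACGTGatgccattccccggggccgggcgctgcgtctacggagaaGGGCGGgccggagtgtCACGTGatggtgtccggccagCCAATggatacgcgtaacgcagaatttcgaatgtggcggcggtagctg
Mdm4: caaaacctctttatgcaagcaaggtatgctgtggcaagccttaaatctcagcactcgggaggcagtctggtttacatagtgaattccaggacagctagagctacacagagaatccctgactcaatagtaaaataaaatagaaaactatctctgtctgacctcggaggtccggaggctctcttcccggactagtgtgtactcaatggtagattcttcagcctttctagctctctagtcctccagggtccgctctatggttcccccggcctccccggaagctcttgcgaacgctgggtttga
Fez1 upstream: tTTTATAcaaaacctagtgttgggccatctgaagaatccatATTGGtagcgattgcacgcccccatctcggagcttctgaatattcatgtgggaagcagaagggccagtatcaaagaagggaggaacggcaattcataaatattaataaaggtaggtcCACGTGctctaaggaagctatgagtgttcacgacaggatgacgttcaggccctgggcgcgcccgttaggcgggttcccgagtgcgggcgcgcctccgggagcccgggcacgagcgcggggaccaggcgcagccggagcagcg
Fez1 downstream: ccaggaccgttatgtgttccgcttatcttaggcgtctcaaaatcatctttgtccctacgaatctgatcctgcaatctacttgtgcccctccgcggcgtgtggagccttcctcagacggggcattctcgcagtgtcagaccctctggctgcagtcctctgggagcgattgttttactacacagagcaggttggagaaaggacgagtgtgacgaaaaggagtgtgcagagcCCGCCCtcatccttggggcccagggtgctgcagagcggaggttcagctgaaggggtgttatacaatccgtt
Abr: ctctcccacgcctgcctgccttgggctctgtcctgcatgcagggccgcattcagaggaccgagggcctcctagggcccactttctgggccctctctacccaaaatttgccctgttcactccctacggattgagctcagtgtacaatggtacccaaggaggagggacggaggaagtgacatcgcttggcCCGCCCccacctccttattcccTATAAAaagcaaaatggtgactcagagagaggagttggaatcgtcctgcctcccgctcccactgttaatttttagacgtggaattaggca
The Sgo1 window, whose gene encodes shugoshin, the protector of centromeric cohesin, held 27 CpG and a GC content of 64.3%. It also held 1 CCAAT, 1 GGGCGG and 2 CACGTG. The Mdm4 window, of a p53 inhibitor gene, held 9 CpG, a GC content of 49.7% and none of the 4 motifs. Of Fez1, a kinesin adaptor gene, the upstream window shared 190 bp with the region and held 23 CpG, a GC content of 56.3%, 1 CACGTG, and 1 TATAAA and 1 CCAAT in reverse. Of these matches only CACGTG lay in the region. The downstream window lay wholly in the region and held 15 CpG, a GC content of 55.3% and 1 GGGCGG in reverse. The Abr window held 10 CpG, a GC content of 56.0%, 1 TATAAA and 1 GGGCGG in reverse. It shared 155 bp with the region, and both matches lay outside that part. Among all 32851 windows the median was 7 CpG and 52.7% GC, and TATAAA was found in 13.6%, CCAAT in 37.4%, GGGCGG in 35.7% and CACGTG in 7.15%. A match is a description of the letters and was not tested as a binding site.

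The regions lay at 1428 of 8884 annotated autosomal pseudogenes (16.1%). Of them, 1643 were beside 1 pseudogene and 33 beside 2. A single region was found at 1186 pseudogenes, 2 regions at 205, 3 regions at 35 and 4 regions at 2. Regions were 200 to 1955 bp wide with a median of 383 bp. An end of another gene class, such as a small RNA, lay within 1 kb of 15 regions.

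Each library had its own deposited peak list, with 109230 peaks in Mock 1, 117905 in Mock 2, 51234 in BMH-21 1 and 55459 in BMH-21 2. Read totals were not given, so sequencing depth is unknown, and the part of depth or list length in each difference between treated and control libraries was not tested. Every library had peaks at the gene ends (within 1 kb) of all 10 pachytene marker genes. Of other testicular cells, spermatogonia markers had peaks at 4 and 3 of 5 genes in Mock, against 2 and 2 in BMH-21, with Stra8 at none. Sertoli markers had 4 and 4 against 5 and 4 of 5, and Leydig and peritubular markers 4 and 4 against 3 and 3 of 6, with Acta2 and Hsd3b1 at none. Leukocyte markers had 3 and 3 against 1 and 1 of 5, with Ptprc and Adgre1 at none, and endothelial markers 3 and 3 against 1 and 1 of 4, with Pecam1 at none. The part of these cells in the results was not tested.

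BMH-21 libraries held fewer of the pseudogene-end regions than Mock libraries. Mock 1 held 1202 and Mock 2 held 1327 of the 1676 regions, while BMH-21 1 held 376 and BMH-21 2 held 387. The groups did not overlap. Mock averaged 1264.5 ± 88.4 and BMH-21 averaged 381.5 ± 7.78 regions (SD, n = 2 each), which gives a ratio of 0.302. The exact permutation test had a two-sided p of 0.33, the smallest that 2 libraries against 2 can give, so the design cannot separate the groups by this test. Fewer cells open at a region and weaker opening in each cell cannot be told apart in such bulk libraries.

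The ratio was lower than that of the whole autosomal list. Autosomal regions held numbered 88502 and 95601 in Mock, against 33925 and 36267 in BMH-21, a ratio of 0.381. Those away from every gene end numbered 67272 and 73687, against 19522 and 21451, a drop at least as steep as at pseudogene ends. Those at protein-coding ends numbered 15791 and 16100, against 11754 and 11959. The lower ratio was thus not particular to pseudogene ends. Regions at pseudogene ends made up 1.36% and 1.39% of all autosomal regions held in Mock 1 and 2, and 1.11% and 1.07% in BMH-21 1 and 2. The groups did not overlap, with means of 1.37 ± 0.0211 and 1.09 ± 0.0292% (SD, n = 2 each) and a difference of -0.285 percentage points (exact permutation p = 0.33, two-sided). Cut to the strongest 51234 peaks each, the lists gave a ratio of 0.550 for pseudogene-end regions and 0.899 for all autosomal regions, and a difference in share of -0.688 points. With windows of 500 bp in place of 1 kb the difference in share was -0.105 points.

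Where a region was present, its peak was of middle height. The deposited fold, the authors' ratio of signal over local background for each peak, had medians of 4.69 and 4.69 in Mock, against 4.58 and 5.03 in BMH-21 over the pseudogene-end regions. It ranged from 1.61 to 15.6 in Mock 1, 1.61 to 18.1 in Mock 2, 2.04 to 13.2 in BMH-21 1 and 1.92 to 15.8 in BMH-21 2. As percentiles of the fold within each list, the medians were 58.6 and 56.8 in Mock, against 51.3 and 58.3 in BMH-21. All autosomal regions had 46.1 and 46.2 in Mock, against 63.2 and 63.5 in BMH-21. The pseudogene-end median was thus above the autosomal one within each Mock list and below it within each BMH-21 list. Ranks from lists of such different length do not show a change in height. Between the groups the pseudogene-end medians overlapped and the autosomal ones did not. Folds serve here only to describe and rank peaks within a list.

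**Figure D1:**
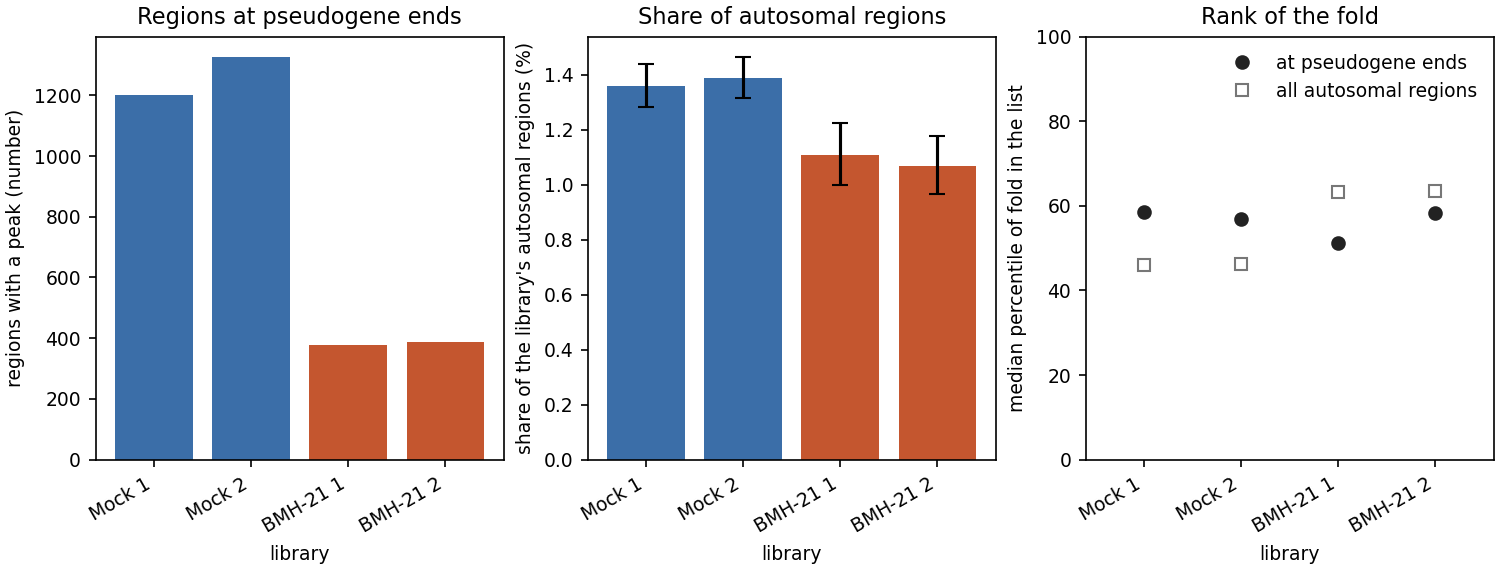
Values of the 1676 pseudogene-end regions in each of the 4 libraries: the number held, their share of the autosomal regions held in percent with exact 95% intervals as bars, and the median percentile of the deposited fold beside that of all autosomal regions. The Mock libraries held 1202 and 1327 regions and the BMH-21 libraries 376 and 387. The pseudogene-end percentile medians lie between 51.3 and 58.6 in all 4 libraries, and the autosomal ones at 46.1 and 46.2 in Mock, against 63.2 and 63.5 in BMH-21.

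Most regions seen in both Mock libraries had no peak in either BMH-21 library. Such regions, called mock-only below, numbered 665 of the 970 present in both Mock libraries, or 68.6% (exact Clopper-Pearson 95% interval 65.5 to 71.5). The background, the same share over all autosomal regions, was 63.7% (44738 of 70241). The share was 75.9% (38658 of 50960) at autosomal regions away from every gene end, 50.1% (1365 of 2725) at lncRNA ends only and 23.8% (3525 of 14804) at protein-coding ends. Pseudogene-end regions thus lay between sequence away from genes and lncRNA ends, and closer to the former. Regions are not replicates, intervals cover counting error only, and the differences between classes were not tested.

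Regions of the reverse kind were few. Regions with a peak in both treated but no control library, called BMH-21-only, were 39 of the 277 regions in both BMH-21 libraries (14.1%, 10.2 to 18.7), with a background of 19.5%. The share was 30.9% away from every gene end, 25.3% at lncRNA ends and 3.96% at protein-coding ends. With lists of equal length it was 28.4% beside a background of 39.0%. It was 23.1% without Mock replicate 2 (background 23.8%) and 22.6% without BMH-21 replicate 1 (background 28.3%). Retention in all 4 libraries was found for 205 of the 970 regions in both Mock libraries (21.1%, 18.6 to 23.8), with a background of 29.0%. Away from gene ends that share was 16.3%, at lncRNA ends 42.1% and at protein-coding ends 71.2%.

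The remaining regions were split between libraries. A peak in Mock 1 alone was found at 210 regions, in Mock 2 alone at 315, in BMH-21 1 alone at 33 and in BMH-21 2 alone at 45. Both Mock libraries and a single BMH-21 library held a further 100 regions. So 525 regions were seen in a single Mock library and nowhere else, beside 665 seen in both.

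No single library set the loss. Of the pseudogene-end regions in Mock 1, 77.6% had no peak in BMH-21 1 and 77.5% none in BMH-21 2, with backgrounds of 73.2% and 72.4%. Of those in Mock 2, 78.2% and 78.3% were without a peak in BMH-21 1 and 2, with backgrounds of 74.6% and 73.8%. The 4 pairs spanned less than 1 point among pseudogene-end regions. The same 4 shares were 82.9 to 84.5% away from gene ends and 29.9 to 31.7% at protein-coding ends.

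Weak regions were mock-only more often than strong ones, at pseudogene ends as elsewhere. Strength is the mean percentile of a region's fold in the 2 Mock lists, in 5 classes of equal numbers of autosomal regions. From the weakest to the strongest class, the mock-only share at pseudogene ends was 90.8% (59 of 65), 85.1% (148 of 174), 78.3% (184 of 235), 70.8% (187 of 264) and 37.5% (87 of 232). All autosomal regions had 82.4, 78.9, 73.8, 59.7 and 23.7%. Pseudogene-end regions had the higher share in each of the 5 classes. Regions away from gene ends had 85.9, 82.8, 78.9, 70.0 and 46.8%, so that pseudogene ends were higher in classes 1, 2 and 4 and lower in classes 3 and 5. In the strongest class they had 37.5% (31.3 to 44.1), and protein-coding ends had 5.18%.

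The pseudogene-end regions were also stronger than their neighbours away from genes, with a median strength of 63.4 against 47.5, and 53.3 for all autosomal regions. Given the strength mix of the pseudogene-end regions, the share would be 59.5% from all autosomal regions, 70.0% from those away from gene ends, 45.7% from lncRNA ends and 29.3% from protein-coding ends, beside the observed 68.6%. Ranked by the deposited -log10 q instead, the mix gave 67.1% for all autosomal regions and 71.9% for those away from gene ends. The excess over the autosomal value was thus 9.11 points by fold and 1.45 points by -log10 q. By -log10 q the pseudogene-end share in the second weakest class was 80.8% against 83.5% in all autosomal regions, the opposite order to that by fold.

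**Figure D2:**
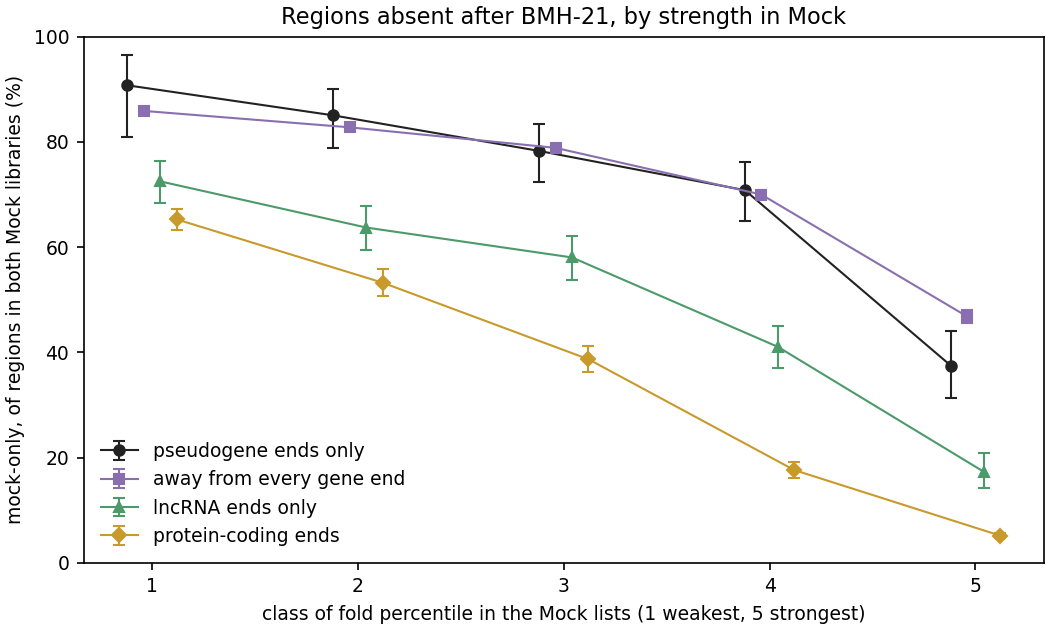
Mock-only share in percent of the regions present in both Mock libraries, by 5 classes of strength in the Mock lists (weakest to strongest), for regions at pseudogene ends only, away from every gene end, at lncRNA ends only and at protein-coding ends, with exact 95% intervals as bars. The pseudogene-end share went from 90.8% in the weakest to 37.5% in the strongest class.

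Open regions were denser close to a pseudogene end, in treated and control libraries alike. Autosomal regions more than 1 kb from protein-coding and lncRNA gene ends were counted by the distance of their midpoint to the nearest pseudogene end. There were 74.1 regions per Mb within 249 bp, 71.4 at 250 to 499 bp, 60.6 at 500 to 749 bp and 45.8 at 750 to 999 bp. In the next 250 bp there were 40.4 per Mb. Within 249 bp, Mock 1 and 2 held 53.0 and 57.2 regions per Mb and BMH-21 1 and 2 held 19.6 and 19.97. At 2000 to 2999 bp the densities were 27.03, 28.99, 8.95 and 9.47. The ratio of near to far was 1.96 and 1.97 in Mock, against 2.19 and 2.11 in BMH-21, without overlap between the groups (exact permutation p = 0.33).

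Loss was less frequent close to the end. The mock-only share was 62.8% (214 of 341) within 249 bp, 67.1% (190 of 283) at 250 to 499 bp, 73.8% (158 of 214) at 500 to 749 bp and 78.0% (103 of 132) at 750 to 999 bp. Beyond 1 kb it ranged from 65.5 to 77.9% over the bins up to 2999 bp, with no further order. Regions that covered a pseudogene end numbered 561, and 214 of the 395 in both Mock libraries were mock-only (54.2%, 49.1 to 59.2). Among the 1115 that covered none it was 451 of 575 (78.4%, 74.8 to 81.7). The first were stronger, with a median strength of 73.8 against 57.6, and a wider region covers an end more easily. The part of strength and width in this difference was not tested.

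**Figure D3:**
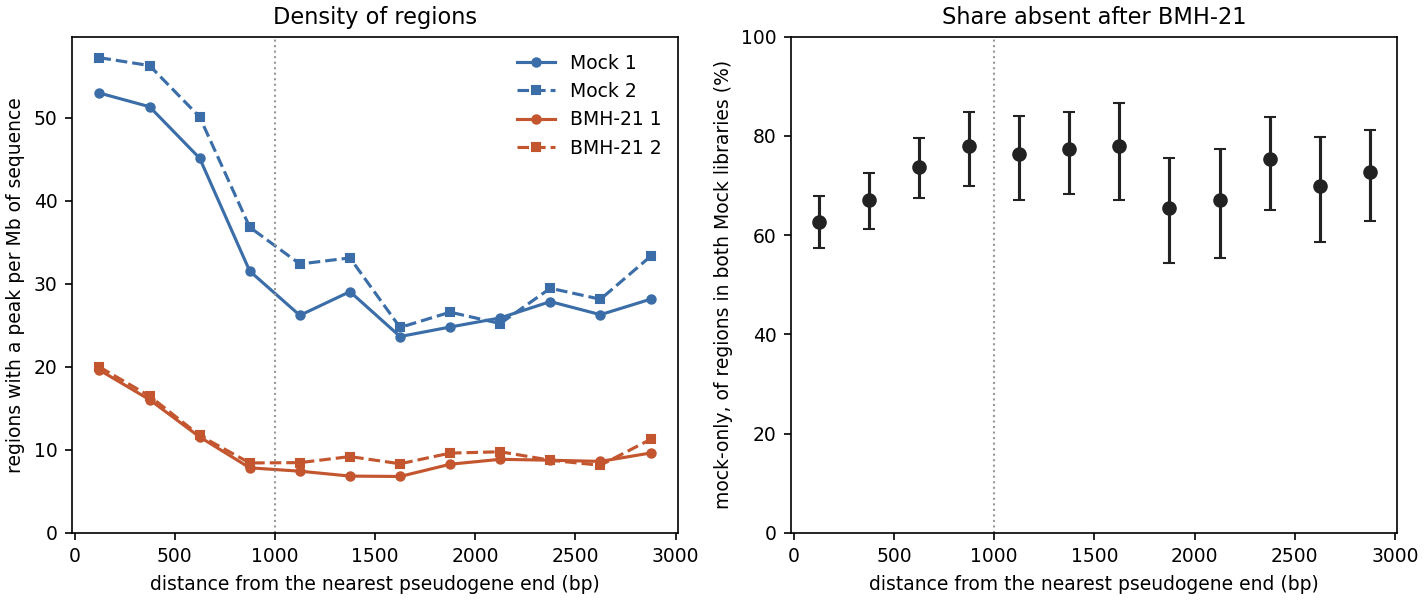
Regions per Mb in each of the 4 libraries (left) and mock-only share in percent with exact 95% intervals (right), by distance of the region's midpoint from the nearest pseudogene end in bins of 250 bp, with a dotted line at the 1000 bp limit of the rule. Density was highest within 249 bp in every library, and the mock-only share there was 62.8%.

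At the limit of the rule, 103 regions had a pseudogene end at 900 to 1000 bp, with 45 of 58 mock-only (77.6%), and 75 lay just outside at 1001 to 1100 bp, with 27 of 39 (69.2%). With a protein-coding or lncRNA end at 1001 to 1100 bp, 7 regions were just inside the rule, with 1 of 5 mock-only, and 10 with such an end at 900 to 1000 bp were outside it, with 3 of 6. In all, 153 regions had both kinds of end within 1 kb and were left out by the rule, with 43 of 112 mock-only (38.4%).

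Many of the regions lay within protein-coding or lncRNA genes. The midpoint lay inside a protein-coding gene in 492 regions (29.4%), inside a lncRNA gene only in 87 and in neither in 1097 (65.5%). Mock-only shares were 67.3% (210 of 312), 59.1% (26 of 44) and 69.9% (429 of 614). Away from gene ends they were 75.2% in protein-coding genes and 77.3% in neither kind of gene. BMH-21-only shares were 5.63% (4 of 71), 30.0% (6 of 20) and 15.6% (29 of 186). The corresponding BMH-21-only shares away from gene ends were 24.9% in protein-coding genes and 38.5% in intergenic sequence. Midpoints inside the pseudogene itself numbered 904 (53.9%), with 66.9% mock-only, and those outside 772, with 70.7%.

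Every autosome held such regions, from 45 on chromosome 19 to 123 on chromosomes 3 and 7. The mock-only share ranged from 54.0% on chromosome 11 (27 of 50) to 82.5% on chromosome 12 (52 of 63), with a mean of 68.7 ± 8.10% (SD over 19 autosomes). It was below the share away from gene ends in 15 of 19 autosomes and above that of all regions of the same chromosome in 14 of 19. The same rule on the X chromosome gave 793 regions, with 542 and 595 held in Mock, against 475 and 461 in BMH-21. There the mock-only share was 19.4% (92 of 475, 15.9 to 23.2), below that of each of the 19 autosomes, and 282 regions were in all 4 libraries. On Y the rule gave 12 regions, with 1 of 5 mock-only. The difference between X and the autosomes was not tested here. The share of all X regions is not given, so the low value cannot be read as particular to pseudogene ends on X.

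**Figure D4:**
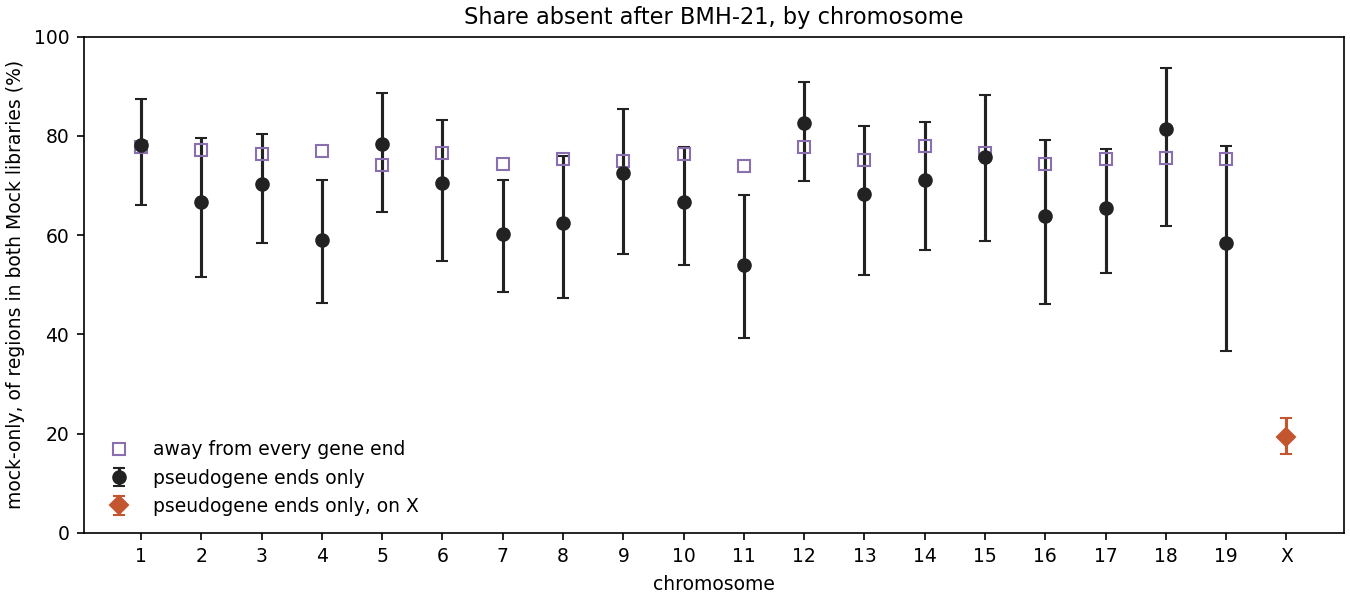
Mock-only share in percent of regions at pseudogene ends only on each autosome and on X, with exact 95% intervals as bars, and that of regions away from every gene end on the same autosome as squares. The 19 autosomes lie between 54.0 and 82.5% and X at 19.4%.

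By parent gene, predicted pseudogenes with no parent in their symbol formed the bulk, with 1437 regions at 1220 of 7163 annotated genes. Of their 836 regions in both Mock libraries, 576 were mock-only (68.9%), near the 68.6% of all pseudogene-end regions. Of their 232 in both BMH-21 libraries, 33 were BMH-21-only, beside 39 of 277 for all pseudogene-end regions. Families with a named parent were small, and 1 or 2 regions decide their shares. Keratin and immune segment pseudogenes had no such region.

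Ribosomal protein pseudogenes, copies of genes for the proteins of the ribosome, had 44 regions at 39 of 284 annotated pseudogenes (13.7%). Of 18 in both Mock libraries, 13 were mock-only (72.2%) and 4 were in all 4 libraries, and 1 further region was BMH-21-only. Rpl36-ps8 (chr4:116840116-116840434) had folds of 7.76 and 6.96 in Mock 1 and 2 and no BMH-21 peak, and Rpl27a-ps1 had 6.86 and 6.59. Rpl31-ps13, inside Naip1, was the BMH-21-only region, with folds of 3.12 and 3.13. Rpsa-ps11 was retained with folds of 6.61 and 7.03 in Mock, beside 6.78 and 7.19 in BMH-21. Rps15-ps3 was retained too, with 9.76 and 9.40 in Mock, against 4.98 and 5.03 in BMH-21. Ribosomal protein copies were therefore found in every kind of call.

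Olfactory and vomeronasal receptor pseudogenes, whose parents detect odours and pheromones, had the lowest occupancy of the larger families, with 11 regions at 11 of 572 (1.92%). Of 6 in both Mock libraries, 3 were mock-only and 2 were in all 4. Olfr939-ps1 had Mock folds of 4.33 and 4.89, and Olfr240-ps1 had 4.15 and 5.05. Vmn2r125 was BMH-21-only with folds of 4.03 and 4.30. Both retained regions were on chromosome 13 beside vomeronasal pseudogenes. Vmn2r-ps97 had folds of 10.5 and 12.8 in Mock, against 5.50 and 5.87 in BMH-21, and Vmn2r-ps108 had 8.48 and 9.97 in Mock, against 4.95 and 7.63 in BMH-21.

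Among cytoskeletal copies, actin and tubulin pseudogenes had regions at 5 of 8 annotated genes. The 3 regions in both Mock libraries were all mock-only, namely Tubb3-ps1 (Mock folds 5.09 and 5.14), Tubb4b-ps2 (4.69 and 4.33) and Actg-ps1 (4.21 and 4.19). With a background of 63.7% over all autosomal regions, 3 regions cannot show a difference. Tubb4b-ps1 had a peak only in Mock 1. Actg-ps1 and Tubb4b-ps1 were named after their values were seen, as were the proteasome, translation factor, zinc finger, Ldha and Ndufs6b copies and Gm20591 and Gm9655 below.

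Copies of metabolic and proteostasis genes were sparse. A region shared by Aldoa-ps3 and Aldoa-ps4, copies of the glycolytic enzyme aldolase A, was mock-only with folds of 3.79 and 3.39, and Ldha-ps and Ldha-ps2 had a peak in Mock 2 alone. Of the chaperone copies, Hspe1-ps3, inside the histone methyltransferase gene Kmt2c, was in all 4 with folds of 7.94, 8.09, 9.90 and 7.63 in Mock 1, Mock 2, BMH-21 1 and BMH-21 2. Gm20595, a copy of a chaperonin subunit, was mock-only with 4.76 and 3.53, Gm20591 had a peak only in Mock 1 (4.17) and Gm9655 only in BMH-21 1 (5.68). Ndufs6b, of the electron transport list, had 2 regions, with a peak only in Mock 1 (3.97) and only in BMH-21 1 (4.95). The proteasome and ubiquitin copies Psmb5-ps (3.72 and 3.93) and Ube2n-ps1 (4.87 and 6.02) were both mock-only. The translation factor copies Eef2-ps2 and Eif5al3-ps had a peak in a single Mock library each. With so few regions no share of these families can be set beside the 68.6% of all pseudogene-end regions.

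Zinc finger copies had 2 regions, both in all 4 libraries. Zfp520-ps had folds of 9.98 and 10.3 in Mock, against 11.4 and 12.8 in BMH-21. Zfp683 had 3.50 and 3.61 in Mock, against 4.79 and 4.70 in BMH-21. With only 2 regions, no share can be read from them.

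The strongest mock-only regions were high peaks of the Mock lists. The region at Gm3926 (chr13:75523161-75524001) had folds of 13.0 and 14.5 in Mock 1 and 2, and that at Prb3-ps (chr6:132055402-132056318), a copy of a proline-rich protein gene, had 12.3 and 13.3. Gm9282 (chr12:22030187-22031285) had 10.6 and 10.5, and Gm8201 (chr8:33434182-33435229) had 10.8 and 10.2. All 4 had their midpoint in a pseudogene body and in no protein-coding or lncRNA gene, and had no peak in either BMH-21 list. Gm48191 (chr10:94025222-94025737), inside the cell junction gene Vezt, had 9.03 and 11.7, and Gm19191 (chr13:9387443-9387940), inside Dip2c, had 9.57 and 10.4. Rn5s-ps1 (chr8:123600440-123601050), a copy of the 5S ribosomal RNA gene, had 10.8 and 8.84. Gm29807, Gm7004 and Gm8281 complete the 10 strongest, whose folds ran from 8.84 to 14.5.

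Peaks at the 39 BMH-21-only regions had median folds of 5.12 and 5.47 in BMH-21 1 and 2, at percentiles of 61.1 and 65.3 of those lists. Mark1-ps2 (chr17:53769649-53769969), a copy of a microtubule regulating kinase gene, had folds of 9.53 and 8.60 in BMH-21 1 and 2 and no Mock peak. Gm7882 (chr5:43916610-43917758) had 8.06 and 9.19, and the region shared by Gm6054 and Gm29793 (chr5:147408620-147409486) had 7.70 and 8.40. These were the 3 strongest of the 39. Gm16184 (chr7:19910539-19911148), inside Pvr, which encodes a cell adhesion receptor, had 7.05 and 6.64, and was the only one of the 10 strongest inside a protein-coding gene. The other 6, at Gm22456, Gm4945, Gm7451, Gm18226, Gm7478 and Gm9397, had folds from 6.33 to 8.98. Predicted genes made up 33 of the 39 regions, close to their part of all pseudogene-end regions (1437 of 1676). Of the named copies, Pex13-ps and Ak3l2-ps shared a region with folds of 5.86 and 5.28.

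Retained regions included the highest Mock peaks by rank over the 4 lists. The region shared by Gm7417 and Gm2147 (chr1:6382637-6383318), inside Alkal1, had folds of 15.6 and 16.5 in Mock, against 12.2 and 12.0 in BMH-21. Gm10060 (chr8:19784462-19785310) had 13.8 and 13.8 in Mock, against 11.2 and 13.8 in BMH-21, and Gm20584 (chr8:20424169-20425032) had 12.1 and 13.6 in Mock, against 13.0 and 11.7 in BMH-21. Gm6352 (chr6:47044548-47045208), inside the neurexin family gene Cntnap2, had 13.5 and 15.8 in Mock, against 11.1 and 11.6 in BMH-21. These 4 were near the top of all 4 lists. Gm6475 (chr17:3314114-3314986) had 10.4 and 10.4 in Mock, against 13.1 and 15.8 in BMH-21.

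Retained regions also lay beside zinc finger genes and at internal starts. Gm13241 (chr4:146474725-146475592), nearest to Zfp992, had 14.6 and 11.8 in Mock, against 10.6 and 11.8 in BMH-21. Gm13142 (chr4:147101602-147102574), nearest to Zfp978, had 10.4 and 10.5 in Mock, against 11.7 and 12.3 in BMH-21. Gm31532 (chr17:53688931-53689900), over the Sgo1 window printed above, had 12.3 and 12.0 in Mock, against 11.02 and 10.6 in BMH-21. Its midpoint lay 1.92 kb from the nearest end of Sgo1. Gm18763 and Gm15528 complete the 10 strongest. Of copies with a named parent, Cdc34b had 8.37 and 10.0 in Mock, against 12.4 and 12.8 in BMH-21, and Ppp1r2-ps5, a copy of a phosphatase inhibitor gene, had 10.0, 10.6, 11.4 and 11.2 in the same order of libraries.

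**Figure D5:**
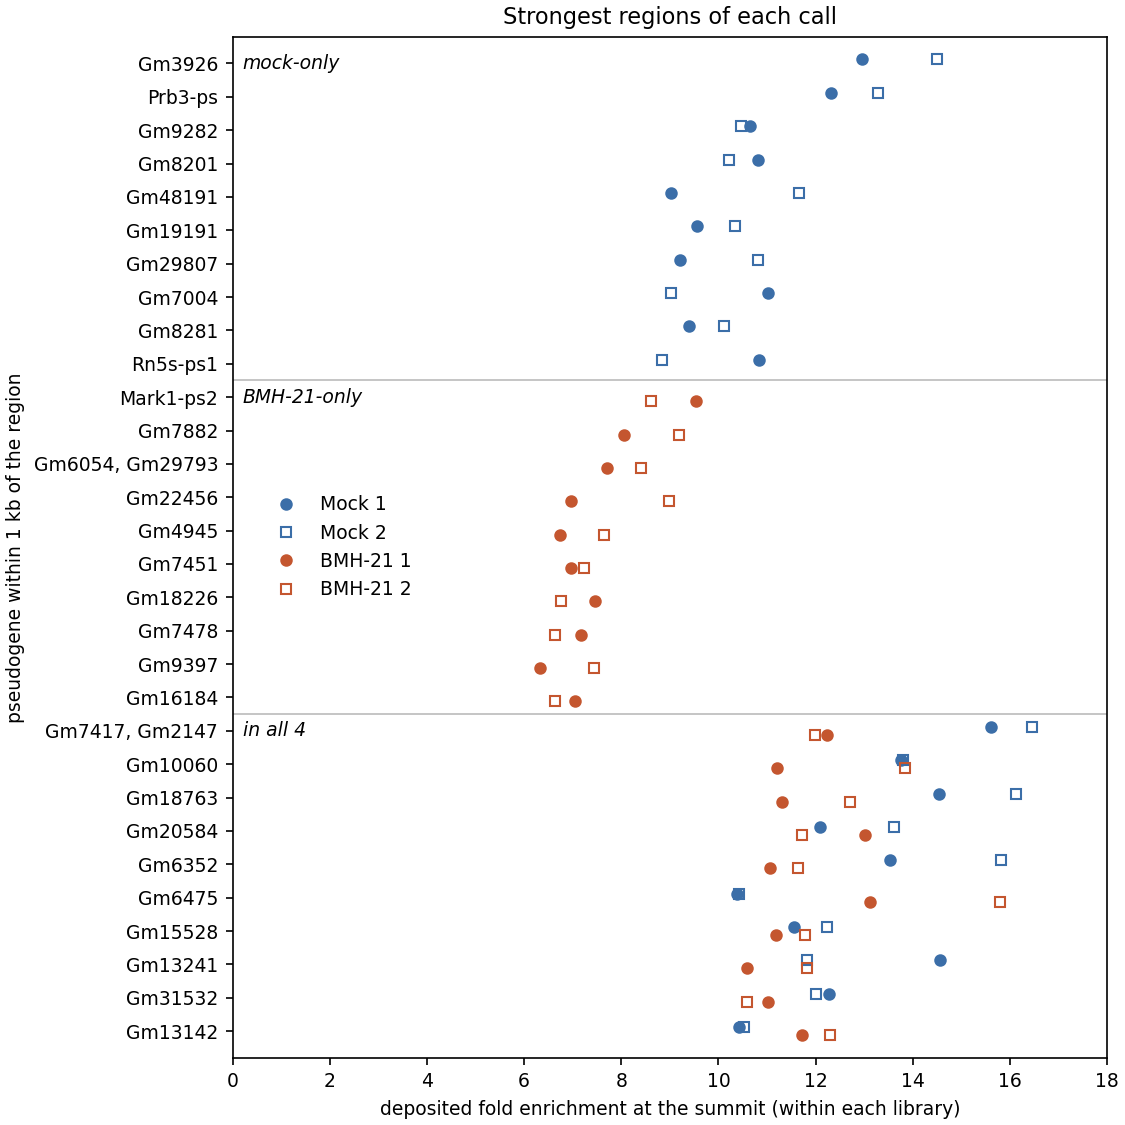
Deposited fold in each library for the 10 strongest mock-only, the 10 strongest BMH-21-only and the 10 strongest retained regions, named by their pseudogene, with 1 point for each library that held a peak. Mock-only regions reach 14.5, BMH-21-only regions 9.53 and retained regions 16.5, on folds that are not normalised between libraries.

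The other 3 regions lay over the windows printed above. Gm29257 (chr1:133024949-133025713), over the Mdm4 window, had 14.4 and 12.4 in Mock, against 8.46 and 9.10 in BMH-21. Gm27219 (chr9:36832600-36833846), over both Fez1 windows, had 11.6 and 13.0 in Mock, against 6.23 and 8.21 in BMH-21. Gm12341 (chr11:76509515-76509986), over the Abr window by 155 bp, had 3.67 and 4.76 in Mock and no BMH-21 peak. The 3 retained regions were thus all stronger in the Mock lists than the lost one.

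Width and height differed between the calls. Mock-only regions had a median width of 450 bp, BMH-21-only regions 459 bp and retained regions 765 bp, beside 424, 352 and 967 bp for all autosomal regions of the same calls. Width is that of the merged region, so a retained region joins peaks of more libraries than a mock-only or BMH-21-only one. The part of merging in these widths was not tested. The median Mock percentiles of the fold were 58.6 and 58.0 for mock-only regions and 85.6 and 86.0 for retained ones. For all autosomal regions of these calls they were 41.6 and 43.2, and 81.5 and 82.1. In the BMH-21 lists the retained regions had 71.3 and 72.5, below the 75.6 and 77.0 of all retained autosomal regions. BMH-21-only regions had 61.1 and 65.3 there, beside 58.7 and 62.6 for the autosomes. Mock-only regions at pseudogene ends thus ranked higher in the Mock lists than mock-only regions of the autosomes as a whole.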

How the data were processed

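Narrow peak lists of 4 bulk ATAC-seq libraries were used, 1 list per library. Per the submitters' processing notes, the tools fastp, Bowtie2, bedtools, deepTools and MACS2 2.1.0 were used, named without role or order, and the sources used here do not state peak calling parameters, duplicate removal or read shifting. The deposited fold is, for each peak, a linear ratio over its own library's local background. The deposited score is a whole number for display and was not used. The deposited -log10 p-value was not used, and the deposited -log10 q-value served as a threshold and as a second strength rank. Its smallest values were 2.01 to 2.09. No value was normalised across libraries, so libraries were compared by presence of a peak, and an absent peak is one below the authors' threshold.

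The notes name mm39 and mm10. Coordinates were read as mm10, because peaks on chromosome 1 reach position 195371813, which mm39 does not reach. Positions are 1-based, and the GRCm38.p6 RefSeq table of 49943 genes gave gene ends, without strand or exons. A further 435 autosomal genes annotated as transcribed pseudogenes were left out of the rule and added as an alternative.

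Groups were compared over libraries by exact permutation over 3 splits. Shares have exact Clopper-Pearson 95% intervals for counting error. The counting of shares was checked on lists simulated from the 109230 regions of Mock 1, of which 1235 were at pseudogene ends. Known shares were returned with a largest error of 0.06 points. Both simulated libraries of a group had the same gains and losses. The check therefore cannot speak to differences between replicates or to unequal list lengths. Named regions were the 10 strongest mock-only, BMH-21-only and retained ones, up to 2 of each in families of at least 3 regions, and some of the pseudogenes with 3 or more regions. Regions and lists were chosen with earlier results of these data known. Alternatives were a stricter -log10 q, equal list lengths, summit windows, a 50% overlap, windows of 500 bp and 2.5 kb, narrower rules of membership and leaving out each library. One region of a named family is not reported here. Planned base composition of the regions was not analysed here, since no genome was used. Python 3.11.15, numpy 2.4.6, pandas 2.3.3, scipy 1.17.1 and matplotlib 3.10.9 were used.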

Additional observations from a re-analysis of the deposited data

How the results depend on the processing

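The ratio of regions held was 0.284 to 0.550, and the difference in share was below 0, under every alternative run, with p = 0.33 by exact permutation in all but the blocked fit. Leaving out each library gave ratios of 0.284 to 0.311 and differences of -0.267 to -0.304 points. The mock-only share was 56.8% with lists of equal length (background 42.5%), 64.4% with windows of 500 bp (background 63.7%) and 76.3% when 1 Mock library sufficed (background 74.3%). It was 73.3 to 74.2% when each library was left out (backgrounds 66.8 to 71.3%). It stood above the background in 13 of 13 alternatives that kept all libraries, which re-cut the same lists and are not independent. The interval included the background with windows of 500 bp (60.6 to 68.1) and when 1 Mock library sufficed (74.1 to 78.4). The same held with only the nearest region of each pseudogene (66.6%, 63.3 to 69.9, background 63.7%). It also held with summit windows (70.7%, 67.6 to 73.7, background 69.3%) and with transcribed pseudogenes included (63.0 to 68.7). The BMH-21-only share was 28.4% with equal lengths (background 39.0%), 20.7% with summit windows (background 33.4%), 20.5% with windows of 2.5 kb and 16.7 to 23.1% when each library was left out (backgrounds 22.3 to 28.3%). It was below the background in 11 of 12 alternatives, the exception being windows of 2.5 kb (background 19.5%). Including transcribed pseudogenes gave 65.9% mock-only and 13.8% BMH-21-only, and leaving out the 6 regions over promoter windows gave 68.7 and 14.2%, both chosen after seeing the data. Strength from -log10 q gave a mock-only share of 20.6% in the strongest class and of 60.4% in the one before it. The cause of these shifts was not tested, apart from the fewer peaks that equal lengths and the fewer libraries that leaving one out entail. With the replicate number as a block (replicate block), the ratio of 0.302 and the difference of -0.285 points had an exact permutation p of 0.50, the smallest possible, with pair differences of -826 and -940 regions. Same-numbered libraries did not deviate together (r = 0.00256 over 20403 regions in all 4, across regions and not replicates). This r covers only regions held by every library, so it cannot speak to presence or list length. Replicate 2 held more pseudogene-end regions in each group (1327 over 1202 in Mock, 387 over 376 in BMH-21). Whether equal numbers mark pairs is thus not known, and both results are given.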

Other observations

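The regions beside zinc finger genes had a lower mock-only share than the rest. This list of 418 coding genes, most of them encoding DNA-binding repressors, was drawn up after the values were seen. Of 117 pseudogene-end regions within 100 kb of such a gene, 33 of 67 in both Mock libraries were mock-only (49.3%, 36.8 to 61.8) and 25 were in all 4. Of the regions farther away, 632 of 903 were mock-only (70.0%). The zinc finger share was 46.0% within 50 kb and 54.2% within 200 kb. Without chromosome 4 it was 57.4% (27 of 47), and on chromosome 4 it was 30.0% (6 of 20). Median strength in Mock was 65.5 for the regions within 100 kb and 63.3 for those farther away. Within 100 kb it was 87.8 on chromosome 4 and 61.1 without it. Pseudogene-end regions of the strongest class anywhere had a mock-only share of 37.5%. The difference and the part of strength in it were not tested. The share of all autosomal regions near these genes is not given here.

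The chromosome 4 regions lay in a cluster at 145 to 148 Mb. It held 30 pseudogene-end regions, of which 29 were within 100 kb of a zinc finger gene. Of 21 in both Mock libraries, 7 were mock-only and 12 were in all 4, while elsewhere 69.3% were mock-only. The cluster was picked after its values were seen.

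Copies of genes of the ribosome's RNA machinery were looked up after their values were seen. Fbl-ps2, a copy of the nucleolar methyltransferase gene fibrillarin inside Tulp4, was mock-only with folds of 9.49 and 8.87 in Mock 1 and 2. Rnu3b-ps3, a copy of the U3 small nucleolar RNA gene, was mock-only with 4.69 and 4.33. The 5S ribosomal RNA gene n-R5s197 was mock-only with low folds of 2.42 and 1.90. The 5S gene n-R5s93 had a peak only in Mock 2, with a fold of 3.58.

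At several pseudogenes more than 1 region was present. Of 100 pseudogenes with at least 2 regions in both Mock libraries, all of these regions were mock-only at 55, in all 4 libraries at 3, and mixed at 42. Taken singly, 68.6% of pseudogene-end regions in both Mock libraries were mock-only, beside 63.7% over all autosomal regions. How many such pseudogenes unlinked regions would give was not tested, so these counts do not show joint loss. There were 37 pseudogenes with 3 or more regions. Gm51974 had 4, of which 3 were mock-only, and Gm35638 had 4, of which 2 were mock-only and 1 was retained. At Gm17849, Gm18815 and Gm18934 all 3 regions were mock-only. At Gm16530 2 of 3 regions were retained and none was mock-only.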
